A study of Mus musculus with 9 samples.

Results

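Xenobiotic and retinoid metabolism enzymes were described in sorted small intestinal epithelial cells of mice that lack FoxO1 in the Neurog3 lineage. The members were the genes of the cytochrome P450 (Cyp), glutathione S-transferase (Gst), UDP-glucuronosyltransferase (Ugt1, Ugt2), sulfotransferase (Sult1, Sult2), aldehyde dehydrogenase (Aldh1) and carboxylesterase (Ces) families, found by the start of their symbols. A gene was kept if its mean normalized count was at least 10 over the 6 libraries of either table, so members were chosen by measured levels as well as by name. This gave 99 members out of 223 family genes and 35013 symbols in all. The other 124 family genes were under the level, and 58 of them were at 0 in all 9 libraries. The members closest to the limit were Cyp4f15, Cyp2r1, Cyp2c70 and Ces2d-ps with larger means of 10.5, 10.6, 11.6 and 12.1. The genes just outside it were Ugt2b38, Cyp2c67, Cyp11b1 and Ugt1a10 with 8.45, 8.30, 8.10 and 7.91. Aldh16a1 and Aldh18a1 entered by the letters of their symbols alone, and 2 members were pseudogenes.

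All libraries came from mice of one genotype, Neurog3Cre-FoxO1 f/f; Rosa26tdtomato (NFKO), aged 4 to 6 weeks. Cre is driven by Neurog3, which marks secretory progenitors, so FoxO1 is deleted and tdTomato switched on in their descendants only. Tomato+ cells were sorted by the surface protein CD24 into CD24negTomato+ and CD24+Tomato+ populations. Tomatoneg cells, which carry the same alleles but are not marked as Neurog3 descendants, were the reference, with 3 replicates of each of the 3 populations. There was no Tomato+ population with intact FoxO1, so the effects of lineage and of FoxO1 loss cannot be told apart. Tomatoneg libraries stand in both deposited tables, which were scaled separately, and each comparison was made within 1 table.

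Foxo1 itself, read first as a check of the labels, had normalized counts of 467, 274 and 371 in CD24negTomato+ against 695, 518 and 424 in Tomatoneg libraries (log2 fold change -0.56 ± 0.33 SE, limma adjusted P = 0.43). In CD24+Tomato+ it was 319, 193 and 201 against 748, 529 and 444 (-1.27 ± 0.36, adjusted P = 0.058; 0.022 in a fit with a replicate block, the replicate number as a term). The depth was estimated at 27723742 to 39234462 reads in Tomato+ and 19158348 to 24368832 in Tomatoneg libraries. A value of 3 reads, taken as the limit of detection, was estimated at 2.10 to 4.29 normalized counts. Both estimates took the commonest low value of a library as 1 read, and whole reads were not recovered. Tomatoneg replicate 1 stood apart, with 13025 genes above 0 and correlations of 0.818 to 0.864 with the other Tomatoneg libraries, where all other pairs within a group had 0.924 to 0.959.

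Enterocytes carry a detoxification system much like that of the liver. In phase I, P450 enzymes oxidize drugs, lipids and hormones, and carboxylesterases split esters. In phase II, glutathione, glucuronic acid or sulfate is added, so that the products can be exported. Some class 1 aldehyde dehydrogenases make retinoic acid from retinal, and many of these genes are induced by nuclear receptors that sense bile acids and xenobiotics.

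Many enzymes of these families were lower in CD24+Tomato+ than in Tomatoneg cells. Of 95 members tested, 20 fell and 2 rose (limma on log2(normalized count + 1), Benjamini-Hochberg adjusted P under 0.05 over all tested genes), while 4.89% of all genes fell and 8.02% rose. The median log2 fold change of the members was -1.14, against 0.16 over all genes. With this block, 38 members fell and 5 rose, beside 9.95% and 10.8% of all genes. In all 3 same-numbered pairs of libraries, 60 members were lower and 13 higher, beside 24.1% and 34.3% of all genes. The medians of the 3 pairs were -1.35, -1.09 and -0.72. Without Tomatoneg replicate 1, 17 of 90 members fell and 4 rose, beside 6.16% and 11.6% of all genes. The count of falls was 4 without CD24+Tomato+ replicate 2 (Ces1f, Ces2e, Sult1b1 and Ugt1a7c), beside 41 of 13825 genes tested. It was 6 without CD24+Tomato+ replicate 3 (the same 4 genes with Aldh1l1 and Cyp4f40), beside 98 of 13858 genes. In both cases 0 members rose, beside 127 and 231 genes. With all libraries, 678 of 13874 genes fell and 1113 rose. The rises were 1 without CD24+Tomato+ replicate 1, beside 336 of 13736 genes. They were 5 and 4 without Tomatoneg replicates 2 and 3, beside 1076 of 13900 and 966 of 13911 genes. Of the 95 members, 76 had a mean of at least 10 in both groups, 8 reached the level through CD24+Tomato+ and 11 through Tomatoneg cells alone. A member that reached it through the group where it was high had to differ: among the 76, 20 fell and 1 rose (Gstt1), or 37 and 3 with the block, while Gsto2, Ces1b and Ces2b were called from the other members.

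In CD24negTomato+ cells, no member passed the threshold in either direction, beside 0.999% of all genes higher and 0.32% lower, and the median was 0.16 against 0.08 over all genes. At an unadjusted P under 0.05, 10 of 97 members were higher and 0 lower, but the share of all genes at this cut was not computed. Among these members, Cyp2d10, Cyp2d12, Cyp2d37-ps, Cyp2j5 and Gsto2 reached the level through CD24negTomato+ cells alone, so they had to be higher. No rise of the members is read from these counts. With the block, 8 rose (Ces1c, Cyp2c68, Cyp2j5, Cyp4b1, Gsta1, Gsta4, Gstt1 and Sult1d1) and only Aldh1b1 fell, beside 4.34% and 2.96% of all genes. Without Tomatoneg replicate 1, 6 of 96 rose (Ces1c, Cyp2c68, Cyp2d12, Gsta4, Gsto2 and Gstt1) and 0 fell, beside 4.59% and 3.29%. Only 1 rose without Tomatoneg replicate 2 or 3, beside 125 of 13382 and 99 of 13389 genes. In all 3 pairs, 35 members were higher and 14 lower, beside 28.7% and 23.6% of all genes. Here 82 members had a mean of at least 10 in both groups, 11 reached it through CD24negTomato+ and 4 through Tomatoneg cells alone. Among the 82, 7 rose and 1 fell with the block, and Cyp2j5 was called from the members that reached it through CD24negTomato+ cells. Both comparisons use the same Tomatoneg libraries, and the difference between them was not tested.

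**Figure D1:**
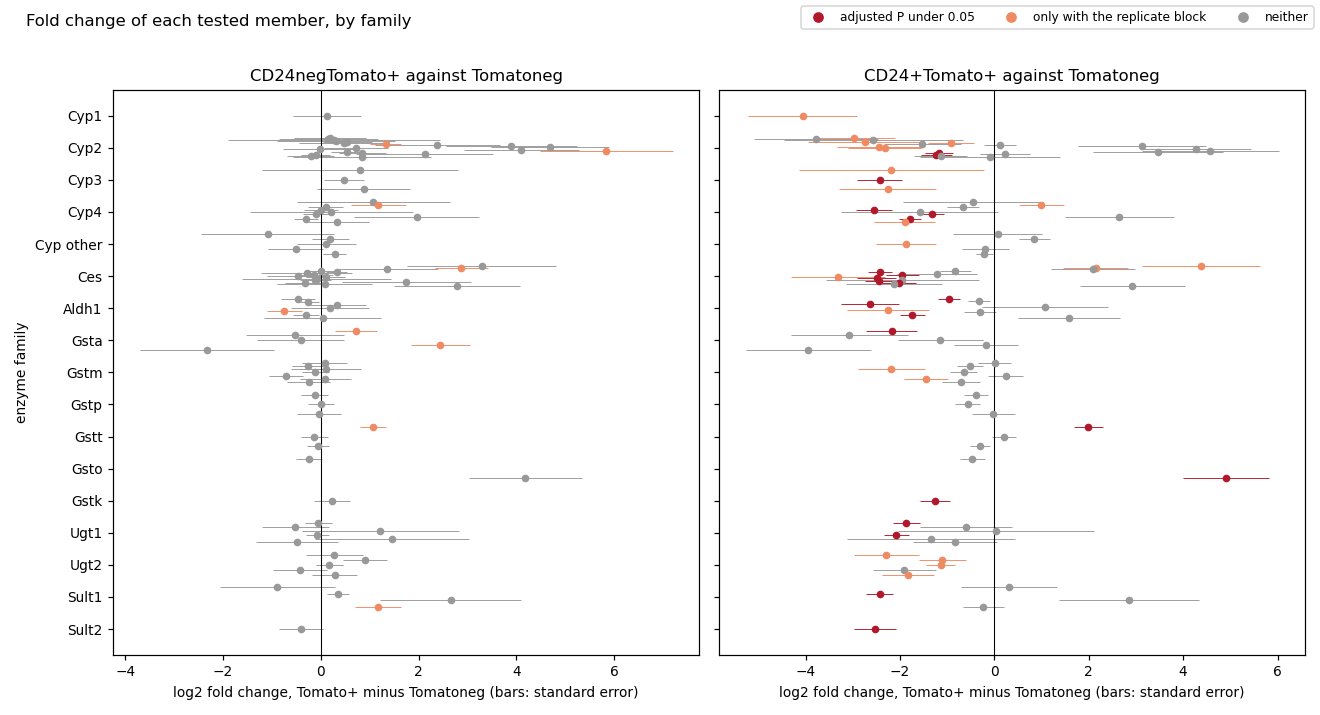
Log2 fold change of each tested member, Tomato+ minus Tomatoneg, with its standard error on the x axis and enzyme family on the y axis; the left panel is CD24negTomato+ (97 members) and the right panel CD24+Tomato+ (95 members). In the right panel, 20 of the 22 members past the threshold lie left of 0; in the left panel none passed it, and 9 passed with the replicate block.

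Many members are arranged in tandem clusters of related genes. On mouse chromosome 8 (GRCm38), 6 Ces1 members lie within 93056728 to 93337308 and 8 Ces2 members within 104734003 to 105021178. The 6 Ugt1a members share chromosome 1, 88070800 to 88220002, and the 6 Cyp4f members chromosome 17, 32506050 to 32947402. The 7 Gstm members lie on chromosome 3, 107895821 to 108044894, and the 3 Gstt members on chromosome 10, 75774115 to 75837424. Gsta4 and Gsta1 are both on chromosome 9, from 78182774 to 78209349 and from 78230656 to 78242684. Neighbours within a cluster can share reads. Of 98 members with GENCODE transcripts, 14 had over 50% of their 31-base words in another gene (among them Gsta1 with 92.9%, Ugt1a1 with 81.3%, Cyp2c68 with 62.0%, Ugt1a7c with 55.7% and Ces2c with 50.1%), so their values are uncertain, while 52 had under 10%.

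The stretch of 250 bases before the RefSeq start (GRCm38.p6) was read for 79 of 99 members, to show the recognition letters of the receptors and the TATA box where they occur. The windows below belong to the drug-metabolizing Cyp3a11 and Cyp3a25, to Cyp1a1, the classical target of the dioxin receptor Ahr, and to the sulfotransferase gene Sult1b1. Capitals mark the nuclear receptor half-site AGGTCA (or TGACCT on the other strand), the dioxin response core GCGTG and the TATA box TATAAA.
Cyp3a11, chr5:145879855-145880104, minus strand: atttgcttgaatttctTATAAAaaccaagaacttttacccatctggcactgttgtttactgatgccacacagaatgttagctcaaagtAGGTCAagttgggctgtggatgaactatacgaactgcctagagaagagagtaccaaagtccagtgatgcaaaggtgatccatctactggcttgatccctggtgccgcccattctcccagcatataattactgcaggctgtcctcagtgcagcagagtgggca
Cyp3a25, chr5:146009619-146009868, minus strand: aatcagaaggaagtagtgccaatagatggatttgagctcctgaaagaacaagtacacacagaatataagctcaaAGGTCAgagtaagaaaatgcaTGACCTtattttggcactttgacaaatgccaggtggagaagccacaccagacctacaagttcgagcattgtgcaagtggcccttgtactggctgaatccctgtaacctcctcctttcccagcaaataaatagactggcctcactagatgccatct
Sult1b1, chr5:87538196-87538445, minus strand: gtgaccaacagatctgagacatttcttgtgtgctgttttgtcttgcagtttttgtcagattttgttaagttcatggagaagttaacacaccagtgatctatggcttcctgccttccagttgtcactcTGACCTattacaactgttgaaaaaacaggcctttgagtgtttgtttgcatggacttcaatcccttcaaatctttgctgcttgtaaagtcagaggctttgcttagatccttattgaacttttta
Cyp1a1, chr9:57697363-57697612, plus strand: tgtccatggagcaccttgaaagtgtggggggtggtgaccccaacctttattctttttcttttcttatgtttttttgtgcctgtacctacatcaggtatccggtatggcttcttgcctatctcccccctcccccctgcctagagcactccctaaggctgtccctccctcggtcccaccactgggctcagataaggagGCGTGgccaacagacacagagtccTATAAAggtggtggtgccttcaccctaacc
In Cyp3a11 the half-site began 162 and the letters TATAAA 234 bases before the start. In Cyp1a1 the dioxin response core began 54 and the TATA box 30 bases before the start. Over windows of 300 bases, from 250 before to 50 after the start, and on both strands, AGGTCA was in 20.3% of 79 members and in 16.0% of 27025 genes. GCGTG was in 27.8% of members and 32.5% of all genes, and the antioxidant response core TGACNNNGC in 6.33% and 12.5%. TATAAA was in 20.3% of members and 14.2% of all genes. The letters describe the windows and do not show a bound site.

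In the carboxylesterase family, 5 of 14 tested members fell in CD24+Tomato+ cells and 0 rose, beside 4.89% and 8.02% of all genes. The family median log2 fold change was -1.95. Ces2e, an ester-cleaving enzyme, had normalized counts of 5970, 3121 and 4400 in CD24+Tomato+ and 27263, 18874 and 25680 in Tomatoneg libraries (5.44-fold lower, log2 fold change -2.44 ± 0.30, adjusted P = 0.0055). Every CD24+Tomato+ library lay below every Tomatoneg library. In the CD24negTomato+ table it was 27602, 14391 and 22912 against 25364, 18485 and 24527, with overlapping groups (-0.11 ± 0.31, adjusted P = 0.88). Ces1f was 452, 316 and 287 against 1882, 1900 and 1803 (-2.43 ± 0.25, adjusted P = 0.0032). This was the smallest adjusted P among the members, and the Tomatoneg values of Ces1f differed little. Ces2a, Ces2c and Ces2g fell by 1.95, 2.49 and 2.03 on the log2 scale. Within the Ces1 cluster, to which Ces1f belongs, the direction was not uniform. Ces1c, which encodes a secreted plasma esterase, was 342, 115 and 395 against 50.8, 30.7 and 110 (2.14 ± 0.70, adjusted P = 0.089; 0.026 with the block). In CD24negTomato+ it was 538, 309 and 386 against 47.9, 30.6 and 107 (2.87 ± 0.54, adjusted P = 0.053; 0.026 with the block). The groups did not overlap in either table. Ces1b shares 19.8% of its 31-base words with Ces1c and was 145, 22.5 and 120 against 0, 2.22 and 13.5 in the CD24+Tomato+ table, where it reached the level through CD24+Tomato+ cells alone.

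Among P450 genes, 6 members fell in CD24+Tomato+ cells: Cyp2j6, Cyp2s1, Cyp3a13, Cyp4f14, Cyp4f16 and Cyp4f40. These were 2 of 18 tested Cyp2, 1 of 3 Cyp3 and 3 of 9 Cyp4 members, beside 4.89% of all genes. Cyp1a1 and the 5 members of other Cyp families were not called. Cyp4f14, a fatty acid and leukotriene hydroxylase, had normalized counts of 5086, 2577 and 2504 against 28163, 14852 and 15838 (5.86-fold lower, -2.55 ± 0.37, adjusted P = 0.0090). Cyp3a13 was 2800, 990 and 1195 against 13950, 6582 and 5678 (5.40-fold lower, -2.43 ± 0.48, adjusted P = 0.020). Both genes had groups that did not overlap. In the CD24negTomato+ table, Cyp4f14 was 25228, 13401 and 17054 against 26144, 14514 and 15094 (0.00 ± 0.35, adjusted P = 1.0). Cyp3a13 was 16855, 8180 and 8711 against 12955, 6435 and 5413, higher in each pair but with overlapping groups (0.47 ± 0.41, adjusted P = 0.59). Cyp2j6, an arachidonic acid epoxygenase family member, fell by 1.17 ± 0.30 in CD24+Tomato+ (adjusted P = 0.044), and Cyp2s1 fell by 1.23 ± 0.32 (adjusted P = 0.048). Cyp4f16 and Cyp4f40 fell by 1.32 and 1.80 on the log2 scale. Cyp2d26 was 1885, 640 and 464 against 12493, 1960 and 2913 (-2.33 ± 0.77, adjusted P = 0.092; 0.0014 with the block).

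Cyp1a1, Cyp2b10 and Cyp3a11, known as inducible targets of Ahr, Nr1i3 (CAR) and Nr1i2 (PXR), did not pass the threshold without the block. Cyp1a1 had normalized counts of 48.4, 14.7 and 1.94 in CD24+Tomato+ and 582, 181 and 99.9 in Tomatoneg libraries (-4.07 ± 1.15, adjusted P = 0.060; 0.0096 with the block). The lowest CD24+Tomato+ value was under the limit of detection. Cyp2b10 was 873, 199 and 111 against 5629, 1536 and 1092 (-2.97 ± 0.86, adjusted P = 0.064; 0.00035 with the block). Both were lower in every pair, and no CD24+Tomato+ library reached the lowest Tomatoneg library. Cyp3a11 was 593, 85.4 and 18.4 against 5645, 568 and 28.0 (-2.18 ± 1.95, adjusted P = 0.52; 0.039 with the block). Its Tomatoneg libraries spanned a wider range than the difference between the groups. In the CD24negTomato+ table it was 5363, 804 and 98.7 against 5243, 556 and 26.7, so that libraries of 1 replicate number were closer to each other than libraries of 1 population. Cyp2b10 and Cyp3a11 were named after their values were seen.

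This order by replicate was common among the members, as seen in the plot of values by library. For 42 of the 93 members tested in both tables (45.2%), replicate 1 was the highest library in CD24negTomato+, CD24+Tomato+ and Tomatoneg cells alike, whereas this held for 15.2% of 13239 genes. Cyp2b10, Cyp2c55, Cyp3a25, Aldh1a1, Aldh1a7, Gsta4, Gstm3 and Ugt2a3 were among them. Replicate 3 was highest in all 3 populations for 13 members (14.0%), near the 15.8% of all genes. These included Aldh1b1, Aldh1l1, Gsto1, Gstp1 and Ugt1a7c. Replicate 2 was highest for Cyp20a1 and Cyp39a1 only (2.15%, beside 5.03% of all genes). The log2 range of the Tomatoneg libraries exceeded the fold change for 85 of 97 members in the CD24negTomato+ comparison and 54 of 95 in the CD24+Tomato+ comparison. Its median was 1.71 for members and 1.15 for all genes. The summed level of 13 enterocyte markers followed the same order in replicate 1: 1213290 in Tomatoneg replicate 1 against 368009 and 390289 in replicates 2 and 3, and 1038130 against 458483 and 539808 in CD24negTomato+ cells. Its part in the order of the members was not tested.

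**Figure D2:**
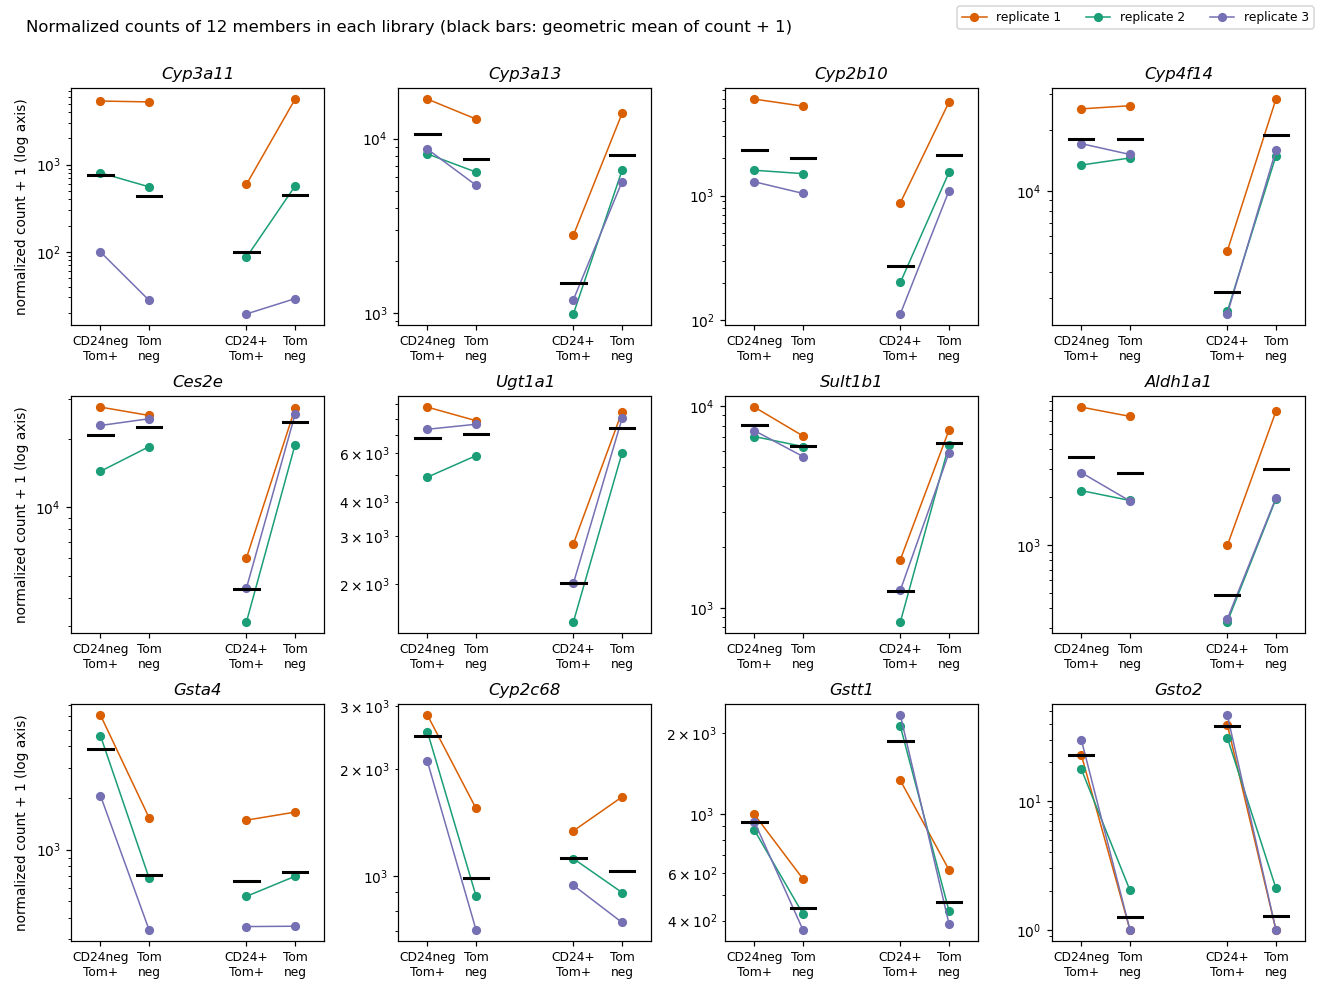
Normalized counts + 1 on a log axis for 12 members in each library, with same-numbered libraries joined by lines and the geometric mean of each group as a black bar. Replicate 1 lies highest in all populations for Cyp3a11, Cyp2b10 and Aldh1a1, while Gsto2 and Gstt1 are higher in every Tomato+ library than in any Tomatoneg library.

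Glutathione S-transferases, which conjugate electrophiles with glutathione, went in several directions. Gstt1 rose and Gsta1 and Gstk1 fell in CD24+Tomato+ cells, while none of the 7 Gstm and 3 Gstp members passed the threshold. Of all genes, 8.02% rose and 4.89% fell in this comparison. Gstt1, a theta-class enzyme, had normalized counts of 1331, 2117 and 2330 against 617, 434 and 388 (3.98-fold higher, 1.99 ± 0.31, adjusted P = 0.0098). In CD24negTomato+ it was 993, 868 and 933 against 571, 422 and 368 (1.06 ± 0.27, adjusted P = 0.10; 0.042 with the block). The groups did not overlap in either table. Its neighbours Gstt2 and Gstt3 had log2 fold changes of 0.20 and -0.31 in CD24+Tomato+ cells, both short of the threshold. Gsto2, an omega-class enzyme that also reduces dehydroascorbate, was 38.1, 30.1 and 45.5 in CD24+Tomato+ and 0, 1.11 and 0 in Tomatoneg libraries. All Tomatoneg values lay under the limit of detection. Gsto2 reached the level through Tomato+ cells alone in both tables, so it had to differ and is given as a description, and its fold change depends on the pseudocount. In CD24negTomato+ it was 21.8, 16.7 and 28.9 against 0, 1.03 and 0.

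Gsta4, which removes the lipid peroxidation product hydroxynonenal, had normalized counts of 6075, 4607 and 2064 in CD24negTomato+ and 1532, 682 and 340 in Tomatoneg libraries (5.45-fold higher, 2.45 ± 0.60, adjusted P = 0.096; 0.0042 with the block). All CD24negTomato+ libraries lay above all Tomatoneg libraries. In the CD24+Tomato+ table it was 1485, 534 and 356 against 1654, 699 and 357 (-0.18 ± 0.68, adjusted P = 0.89). Gsta1 was 6087, 3751 and 2286 against 3402, 2302 and 1502 in CD24negTomato+ (0.72 ± 0.43, adjusted P = 0.43; 0.038 with the block). In CD24+Tomato+ it was 1146, 458 and 284 against 3684, 2368 and 1585 (-2.18 ± 0.54, adjusted P = 0.039). Of its 31-base words, 80.3% are shared with the gene model Gm3776. Gstk1, a mitochondrial and peroxisomal enzyme, fell by 1.26 ± 0.32 in CD24+Tomato+ cells (adjusted P = 0.041). Gstm3 was 1814, 611 and 475 against 9589, 2936 and 1754 (-2.18 ± 0.71, adjusted P = 0.090; 0.00045 with the block). Gstm1, Gstp3 and Gstp1, by contrast, had log2 fold changes of 0.01, -0.02 and -0.39 in this comparison, all short of the threshold, and Gsto1 had -0.47.

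Gsta4, Cyp2c68, Sult1d1, Cyp4b1, Ces1c and Cyp2j5 passed in CD24negTomato+ cells with the block and not in the fit of all libraries without it, as did Gsta1 and Gstt1; those outside the naming rule were chosen after their values were seen. Cyp2c68 had normalized counts of 2829, 2540 and 2096 against 1546, 877 and 705, with no overlap (1.33 ± 0.32, adjusted P = 0.096; 0.023 with the block). Cyp4b1 was 3056, 1302 and 1000 against 1490, 487 and 474, with overlap (1.18 ± 0.57, adjusted P = 0.34; 0.023 with the block). Sult1d1, which sulfates catecholamines, was 4807, 3353 and 2335 against 2112, 2139 and 732 (1.17 ± 0.47, adjusted P = 0.26; 0.037 with the block). Every CD24negTomato+ library of Sult1d1 lay above the Tomatoneg libraries. In CD24+Tomato+ cells Sult1d1 was 1709, 1117 and 1171 against 2234, 2149 and 755 (-0.23 ± 0.44, adjusted P = 0.77). Cyp2c68 was 1338, 1118 and 941 against 1666, 898 and 740 there (0.12 ± 0.34, adjusted P = 0.86). Cyp4b1 was 1874, 1505 and 1094 against 1592, 494 and 493 in CD24+Tomato+ cells, higher in each pair. It passed there too, with the block only. Cyp2j5, better known from kidney, was 184, 313 and 71.5 in CD24negTomato+ cells against 0, 21.7 and 0. In CD24+Tomato+ cells it was 33.7, 23.1 and 36.8 against 0, 22.2 and 0. Both are a description only, since it reached the level through Tomato+ cells alone in both comparisons. Aldh1b1, a mitochondrial aldehyde dehydrogenase, was the only member that fell with the block in CD24negTomato+ cells. It was 13459, 9503 and 17906 there against 17713, 18314 and 33182 (-0.74 ± 0.35, adjusted P = 0.33, and 0.046 with the block).

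Of the glucuronidation and sulfation enzymes, Ugt1a1, Ugt1a7c, Sult1b1 and Sult2b1 fell in CD24+Tomato+ cells. Ugt1a1, the bilirubin-conjugating enzyme, had normalized counts of 2806, 1461 and 2018 against 8465, 6005 and 8006 (3.66-fold lower, -1.87 ± 0.29, adjusted P = 0.0097). Ugt1a7c fell by 2.08 ± 0.27 (adjusted P = 0.0067). The Ugt1a genes use one set of common exons, which the counts of Ugt1a1 and Ugt1a7c therefore share. Ugt2b34 was 5033, 2477 and 2295 against 11026, 7831 and 3284, with overlap (-1.103 ± 0.50, adjusted P = 0.20; 0.017 with the block). None of the 5 Ugt2 members passed without the block, and 4 fell with it, beside 4.89% and 9.95% of all genes lower without and with it. Sult1b1, which sulfates thyroid hormones and phenols, was 1732, 851 and 1222 against 7610, 6408 and 5864 (5.41-fold lower, -2.44 ± 0.29, adjusted P = 0.0053). Sult2b1, which sulfates cholesterol, was 1063, 608 and 657 against 8212, 2493 and 4020 (5.78-fold lower, -2.53 ± 0.45, adjusted P = 0.014). For both genes the populations did not overlap. In CD24negTomato+ cells Sult1b1 was 9882, 7065 and 7558 against 7106, 6299 and 5622 (0.36 ± 0.23, adjusted P = 0.46), and Sult2b1 was 4124, 2024 and 3552 against 7541, 2410 and 3790 (-0.41 ± 0.45, adjusted P = 0.68).

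**Figure D3:**
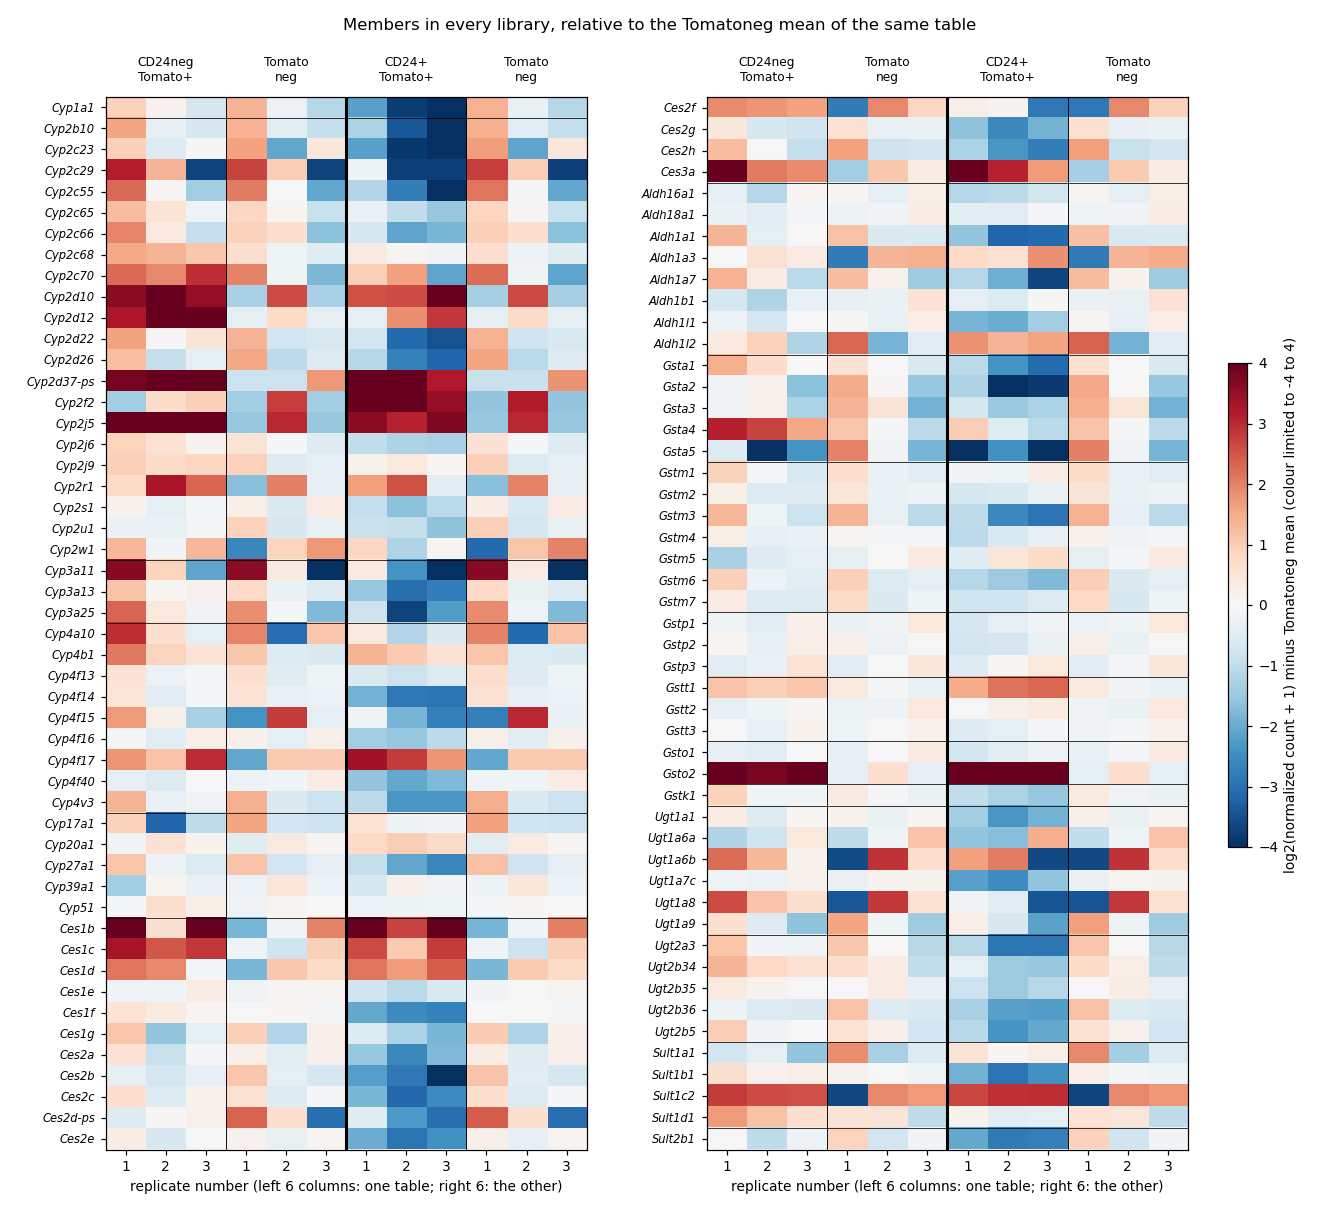
Log2(normalized count + 1) of all 99 members (rows, by family) in each library (columns, by replicate number), minus the mean of the Tomatoneg libraries of the same table; colours are limited to 4 in each direction. The CD24+Tomato+ columns are blue for most Ces2, Cyp3a, Cyp4f, Ugt and Gsta members, and Gsto2 is red in all Tomato+ columns.

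Of the retinal-oxidizing enzymes, Aldh1a1 and Aldh1a3 were tested. Aldh1a1, which oxidizes retinal, had normalized counts of 991, 327 and 342 in CD24+Tomato+ and 6905, 1944 and 1976 in Tomatoneg libraries (6.19-fold lower, -2.63 ± 0.62, adjusted P = 0.033). The groups did not overlap, and the 3 pairs differed by -2.80, -2.57 and -2.53. In the CD24negTomato+ table it was 7333, 2191 and 2843 against 6413, 1900 and 1884 (0.33 ± 0.60, adjusted P = 0.81). Its neighbour Aldh1a7, whose protein is 90.6% identical, was 177, 100 and 30.0 against 941, 434 and 146 (-2.25 ± 0.86, adjusted P = 0.14; 0.0098 with the block). Aldh1a3 was at 11.5, 9.86 and 24.2 against 0, 17.4 and 18.9 (1.08 ± 1.34, adjusted P = 0.65). Aldh1a2 was under the level, as were the retinoic acid hydroxylases Cyp26a1, Cyp26b1 and Cyp26c1, of which Cyp26a1 reached 18.9 in CD24+Tomato+ replicate 1. Aldh1l1, a folate enzyme that shares the symbol's letters and not the retinoid role, fell by 1.74 ± 0.26 (adjusted P = 0.0091), and Aldh16a1 fell by 0.96 ± 0.24 (adjusted P = 0.041).

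Among 31 other genes of retinoid uptake, storage and oxidation, 26 were tested. The test called 2 higher and 3 lower in CD24+Tomato+ cells (6 and 6 with the block). Of all genes, 8.02% were higher and 4.89% lower (10.8% and 9.95% with the block). In CD24negTomato+ cells 0 passed the threshold, beside 0.999% of all genes higher and 0.32% lower. With the block 1 rose and 0 fell there, beside 4.34% and 2.96% of all genes. Rbp2, the enterocyte retinol-binding protein, had normalized counts of 8829, 4669 and 3769 against 45728, 17561 and 22573 (-2.29 ± 0.45, adjusted P = 0.020). Dgat1, an acyltransferase of triglyceride synthesis, and Retsat, the retinol saturase, fell by 1.91 and 1.38 on the log2 scale. Scarb1, a carotenoid and lipid receptor, rose from 412, 140 and 178 in Tomatoneg to 1528, 1344 and 1508 (2.74 ± 0.41, adjusted P = 0.0097). Rbp4, the plasma retinol carrier, was 2340, 2234 and 1709 against 0, 62.6 and 59.5 (7.05 ± 1.502, adjusted P = 0.025). The carotene-cleaving Bco1 was 347, 393 and 131 against 0, 47.8 and 16.9 (4.78 ± 1.40, adjusted P = 0.066; 0.034 with the block), and Lrat, which esterifies retinol, had a log2 fold change of -1.57 ± 0.68 (adjusted P = 0.18). Tomatoneg replicate 1, the library that stood apart, was the one at 0 for Rbp4, Bco1 and Aldh1a3.

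**Figure D4:**
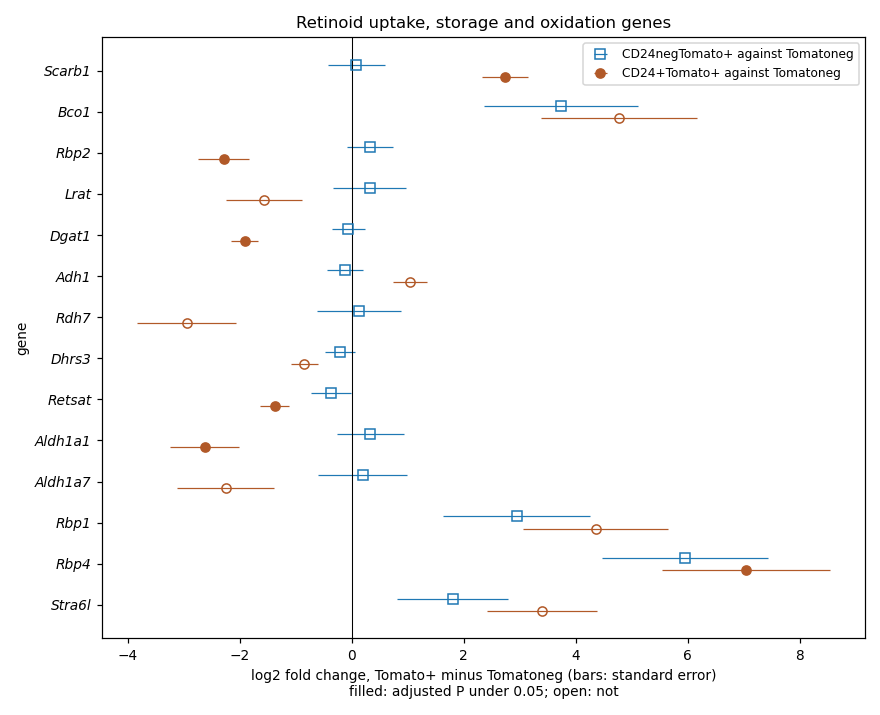
Log2 fold change with its standard error (x axis) for 14 genes of retinoid uptake, storage and oxidation (y axis) in both comparisons; filled symbols passed the threshold. In CD24+Tomato+ cells Rbp2, Dgat1, Retsat and Aldh1a1 lie left of 0 and Scarb1 and Rbp4 right of 0; no symbol is filled for CD24negTomato+ cells.

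Of the P450 genes of sterol and steroid metabolism, none passed the threshold. Cyp51, which makes cholesterol precursors, had normalized counts of 3234, 3312 and 3387 against 3609, 3994 and 3915 in the CD24+Tomato+ table (-0.21 ± 0.17, adjusted P = 0.48). All CD24+Tomato+ libraries were slightly below all Tomatoneg libraries. Cyp27a1, the mitochondrial sterol 27-hydroxylase, was 290, 134 and 92.3 against 1283, 327 and 432 (-1.88 ± 0.64, adjusted P = 0.099; 0.012 with the block). Cyp11a1, Cyp11b1, Cyp7b1, Cyp24a1 and Cyp27b1 were under the level. Cyp11b1, which makes glucocorticoids, was at 45.3 in Tomatoneg replicate 1 and at or under 0.940 in the other 5 libraries of that table.

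Of the regulators of these enzymes, 7 of 18 tested genes fell and 0 rose in CD24+Tomato+ cells, beside 4.89% and 8.02% of all genes. In CD24negTomato+ cells 0 of 18 passed, beside 0.32% of all genes lower and 0.999% higher. Nr1i2, the xenobiotic receptor PXR, had normalized counts of 1324, 994 and 1122 against 3673, 2043 and 2544 (-1.23 ± 0.27, adjusted P = 0.026). Nr1i3 was 264, 135 and 194 against 948, 655 and 900 (-2.11 ± 0.35, adjusted P = 0.012). For both receptors every CD24+Tomato+ library was below every Tomatoneg library. Nfe2l2, the oxidative stress factor, and Rxra, the shared partner of the nuclear receptors, fell by 1.02 and 1.64 on the log2 scale, as did Nr1h4 (by 0.90), Vdr (by 1.005) and Esrra (by 1.11). Ahr was 154, 115 and 57.6 against 407, 254 and 110, with overlap (-1.15 ± 0.63, adjusted P = 0.28).

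Genes of the other steps of the pathway also fell in CD24+Tomato+ cells, where 4.89% of all genes fell and 8.02% rose. No gene of these lists passed in CD24negTomato+ cells without the block, beside 0.32% of all genes lower and 0.999% higher. Of 10 partners and hydrolases, Ephx2, the soluble epoxide hydrolase, fell by 2.34 ± 0.37 (adjusted P = 0.010) and Cyb5a fell by 1.098. The P450 reductase Por, which feeds electrons to the microsomal P450 enzymes, was 2966, 2812 and 3547 against 7159, 2630 and 4715 (-0.53 ± 0.36, adjusted P = 0.39). Of 21 other phase I and II enzymes 6 fell, led by Maoa, Xdh and Fmo4 with -2.14, -2.21 and -2.21. Of 11 cofactor genes 3 fell: Ugdh, which makes UDP-glucuronic acid, by 2.07, Bpnt1 by 1.70 and Gss, the glutathione synthetase, by 0.96. Of 11 transporters 3 fell, among them the conjugate exporter Abcc2 by 2.24 ± 0.54 (adjusted P = 0.037), and Abcc4 rose by 1.89 ± 0.43 (adjusted P = 0.031).

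Cell type markers were read in the same 2 comparisons. Of all genes, 0.999% rose and 0.32% fell in CD24negTomato+ cells (4.34% and 2.96% with the block). In CD24+Tomato+ cells 8.02% rose and 4.89% fell (10.8% and 9.95% with the block). Of 13 enterocyte markers, 9 fell in CD24+Tomato+ cells, 13 with the block, beside 4.89% and 9.95% of all genes. Their summed normalized count was 67133 to 195456 against 374396 to 1300120 in Tomatoneg libraries. In CD24negTomato+ cells none of them passed, 2 rose with the block, and the sums overlapped (458483 to 1038130 against 368009 to 1213290). All 9 goblet markers rose in both Tomato+ populations. Of 12 enteroendocrine markers, 8 rose and 0 fell in CD24negTomato+ cells (10 and 2 with the block), and all 12 rose in CD24+Tomato+ cells. All 9 Paneth markers and 7 of 8 tuft markers rose in CD24+Tomato+ cells. In CD24negTomato+ cells, 3 of 7 tuft markers fell (6 with the block), 2 of 8 stem cell markers fell (4 with the block), and of 9 Paneth markers 1 rose and 0 fell (1 and 4 with the block). In CD24+Tomato+ cells 0 of 8 stem cell markers passed, and 2 rose with the block. Of 5 ileum markers, 1 rose and 0 fell in CD24negTomato+ cells. In CD24+Tomato+ cells 1 ileum marker rose and 3 fell (1 and 4 with the block). Of 8 lymphocyte markers, 3 fell in CD24negTomato+ and 7 in CD24+Tomato+ cells. Hepatocytes also express many of these enzymes; none of the 3 and 4 hepatocyte markers tested in the 2 tables passed. The summed level of all 8 was 12122 to 14563 in CD24negTomato+ against 14397 to 25853 in Tomatoneg libraries, and 11837 to 14230 in CD24+Tomato+ against 15498 to 26434. Most of each sum was Cps1, which enterocytes also express. Alb was 15.7, 35.7 and 25.1 in CD24+Tomato+ and 0, 4.81 and 0 in Tomatoneg libraries (adjusted P = 0.063), and Ahsg and Fgb were at 0 in all Tomatoneg libraries. The part of these markers in the levels of the members was not tested, and in sorted bulk samples fewer cells of a type and less RNA per cell cannot be told apart.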

How the data were processed

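Bulk RNA-Seq was done by the authors on poly-A RNA of sorted cells, with 3 libraries for each of 3 populations. The deposited values are a signal made by the authors: normalized counts from kallisto 0.44.0 estimates on GRCm38, scaled with DESeq2 in 2 tables of 6 libraries; bcl2fastq 2.19 and sleuth are also named in the submitters' processing notes. The annotation release is not given in the sources used here. Only 16.9% to 40.0% of low values lay within 0.01 of a multiple of the commonest low value, so whole reads were not recovered and no count test was run.

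The members and gene lists (6 pathway and 13 marker lists) were chosen with earlier results of these data known. Tests used limma 3.58.1 under R 4.3.3 (lmFit, eBayes with trend) within each table, on log2(normalized count + 1), which understates changes of low genes. Genes whose mean over 6 libraries reached 10 were tested (13420 and 13874). P values were two-sided and Benjamini-Hochberg adjusted over all tested genes, with a threshold of 0.05. The fit was also run on simulated data, with normal noise of the same spread in all libraries of a gene. No simulated library stood apart as Tomatoneg replicate 1 did, so this run cannot speak to its influence on the calls.

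Labels give biological replicates 1 to 3 in each population. Deviations of same-numbered libraries from their group means correlated at 0.302, 0.291 and 0.342 in the CD24negTomato+ table and at 0.283, 0.180 and 0.375 in the CD24+Tomato+ table, so the numbers were taken as pairs, and a fit with the number as a block was run. No source used here says whether libraries of 1 number share mice.

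Named members were, by rule, up to 10 with the largest rise and fall past the threshold in a comparison, the member with the highest mean of each family, members past the threshold that moved in opposite directions in the 2 tables, fixed retinoid and steroid genes, up to 4 genes past the threshold per pathway list, and Foxo1. Positions were taken from GENCODE M21, matched for 98 members. Promoters came from RefSeq. Shared words of 31 bases and proteins, as the longest reading frame, were computed from GENCODE transcripts with Python 3.11.15 and biopython 1.88.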

Additional observations from a re-analysis of the deposited data

Results flagged for a closer look

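Some members past the threshold in CD24+Tomato+ cells were higher in every same-numbered pair of the CD24negTomato+ table and lower in every pair of the CD24+Tomato+ table. The log2 fold changes in CD24negTomato+ and CD24+Tomato+ cells, in this order, were 0.33 and -2.63 for Aldh1a1, 0.33 and -2.43 for Ces1f, 0.10 and -2.49 for Ces2c, and 0.53 and -1.17 for Cyp2j6. They were 0.47 and -2.43 for Cyp3a13, 0.72 and -2.18 for Gsta1, and 0.36 and -2.44 for Sult1b1. The difference between the 2 comparisons was not tested, since both use the same Tomatoneg libraries and the tables were scaled separately. None of these differences in CD24negTomato+ cells passed the threshold, and of them only that of Gsta1 did with the replicate block. The difference of Ces2c, of 0.10, turned to -0.10 with equal library totals. Gsta1 and Ces2c share over 50% of their sequence words with other genes.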

How the results depend on the processing

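Numbers of members past the threshold moved with the settings as follows. For CD24negTomato+ cells, 0 members rose, but 2 did with a pseudocount of 10, 1 with quantile normalization and 2 with eBayes without trend. With the replicate block 8 rose. With the block and without Tomatoneg replicate 1, a setting chosen after seeing the data, 10 of 96 rose. Without 1 library, 0 to 6 rose. Over all genes, 134 of 13420 rose. This became 314 with a pseudocount of 10, 304 with quantile normalization, 196 without trend and 582 with the block. It was 1438 of 13431 with the block and without Tomatoneg replicate 1, and 17 to 617 without 1 library. For falls, 0 became 1 with the block, with or without Tomatoneg replicate 1, and stayed at 0 without 1 library. Over all genes, 43 falls became 397 with the block and 936 with the block and without that library. They were 1 to 442 without 1 library. For CD24+Tomato+ cells, 2 rises became 4 with a pseudocount of 10, 1 with a minimum mean of 50, 1 with quantile normalization, 5 with the block, 7 with the block and without Tomatoneg replicate 1, and 0 to 5 without 1 library. The 20 falls became 32, 38 and 37 with quantile normalization, the block, and the block without that library, and 4 to 19 without 1 library. All 22 calls made in CD24+Tomato+ cells remained with the block, and it lost 0 and added 9 calls in CD24negTomato+ and 21 in CD24+Tomato+ cells, with no other call changed. The cause of these moves was not tested; a setting without 1 library has fewer samples. The median log2 fold change in CD24negTomato+ cells (0.16) was 0.11 with a pseudocount of 10, 0.10 with a minimum of 50, -0.034 with equal library totals, 0.055 with quantile normalization, and -0.14 to 0.42 without 1 library. In CD24+Tomato+ cells (-1.14) it was -1.48 with quantile normalization and -1.28 to -0.80 without 1 library. Equal totals moved the median of all genes in CD24negTomato+ cells from 0.08 to -0.12 and quantile normalization to -0.05; quantile normalization moved it from 0.16 to -0.02 in CD24+Tomato+ cells. Ces1f, Ces2e, Sult1b1 and Ugt1a7c passed the threshold in all 15 alternatives. Cyp2s1, Aldh16a1, Cyp2j6, Gstk1 and Gsta1 depended most on the settings, and passed in 5, 6, 7, 7 and 8 of 15.

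Changes of sign occurred in members that did not pass the threshold. In CD24negTomato+ cells, log2 fold changes without 1 library ran from -0.19 to 0.92 for Aldh1a1, from -0.51 to 0.83 for Aldh1a7, from -0.19 to 0.41 for Ces2c, from -0.31 to 0.16 for Ces2e, from -0.43 to 0.82 for Cyp1a1, and from -0.39 to 0.68 for Cyp27a1. They ran from -0.64 to 0.75 for Cyp2d26, from -0.39 to 0.051 for Cyp2s1, from -0.24 to 0.28 for Cyp4f14, from -0.12 to 0.40 for Gstk1, from -0.50 to 0.78 for Gstm3, and from -0.29 to 0.082 for Gstp1. They ran from -0.15 to 0.059 for Gstt3, from -0.79 to 0.034 for Sult2b1, from -0.24 to 0.18 for Ugt1a1, and from -0.21 to 0.017 for Ugt1a7c. With equal library totals, Aldh1a7 was at -0.0053, Ces2c at -0.10, Cyp1a1 at -0.064, Cyp27a1 at -0.085, Cyp4f14 at -0.20 and Gstm3 at -0.092, and Cyp2d26 was at 0.14 with the block and without Tomatoneg replicate 1. In CD24+Tomato+ cells, Aldh1a3 ran from -0.34 to 1.81 without 1 library, was at -0.998 with quantile normalization and at -0.21 with the block without Tomatoneg replicate 1, and Cyp51 was at 0.032 with quantile normalization. The planned edgeR test was not run, since whole reads were not recovered. Members near 3 reads, such as Gsto2 in Tomatoneg libraries, are limited by depth. P values rest on the variance within groups of 3 libraries, moderated over all tested genes.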
